A study of Homo sapiens with 8 samples.

Results

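The genes described here were 10 secreted cytokines, IL6, IL8, CXCL1, CXCL2, CXCL3, IL1A, IL1B, IL18, LIF and IL11, taken by name from the 18955 genes of a single-cell RNA count table, and all 10 were found there. The table covered 5738 cells in 8 libraries, all of the human line SUM159, an established cell line of triple-negative breast cancer, and every cell came from a population infected with a lentiviral DNA barcode library. A library was made of cells before treatment (pre-treatment), or of cells passaged up to 18 times in DMSO vehicle, in 0.6 nM paclitaxel, in 160 nM palbociclib, in 100 nM JQ1 (2 libraries, JQ1-A and JQ1-B), or in JQ1 with paclitaxel or with palbociclib at those doses. JQ1 displaces BET bromodomain proteins from acetylated chromatin, palbociclib inhibits CDK4 and CDK6, kinases that drive entry into S phase, and paclitaxel keeps microtubules from disassembling. DMSO, paclitaxel, JQ1-A and JQ1+paclitaxel belonged to the JQ1+paclitaxel experiment, and palbociclib, JQ1-B and JQ1+palbociclib to the JQ1+palbociclib experiment, which had no vehicle library. Cultures were grown in 3 replicates that were combined before a library was made, and 1 culture of JQ1+palbociclib was lost during selection, so cultures within a library could not be told apart.

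IL6, LIF and IL11 bind receptors that share the signalling chain gp130 and act through JAK kinases and STAT3. IL8 (current symbol CXCL8), CXCL1, CXCL2 and CXCL3 are chemokines that draw neutrophils through the receptors CXCR1 and CXCR2. IL1A, IL1B and IL18 belong to the interleukin-1 family, of which IL1B and IL18 are cut to their active form by caspase-1. Transcription of most of these genes, above all IL6, IL8 and the CXCL genes, is induced by the factor NF-κB, and BET proteins take part in the transcription of many NF-κB targets. Triple-negative breast cancer cells are known to secrete IL6 and IL8.

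Library depth was 10621159 to 24240835 UMIs (unique molecular identifiers, each counted once per captured RNA molecule), in 459 to 1024 cells. The line markers VIM, KRT8, KRT18 and CD44 were present in every library, EPCAM was not above 0.565 CPM, and the receptors that define triple-negative cells were low, with ESR1, PGR and ERBB2 together at 5.39 to 12.1 CPM (counts per 1000000 UMIs of the library). Of 6 leukocyte markers 3 were in the table, with a sum of 7.71 to 13.2 CPM that was mostly CD68, while the defining marker PTPRC did not exceed 0.471 CPM. None of the 3 endothelial markers was in the table. There were 13 cell barcodes found in more than 1 library among 5725 distinct ones. Leaving those cells out changed no call on a cytokine for JQ1, palbociclib or paclitaxel. The interaction terms described below were not refitted without them.

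IL6 and the 4 chemokine genes share a sequence upstream of their start. The NF-κB motif GGANTTTCC was searched on both strands of the RefSeq promoter windows, which run from 250 bases before to 50 bases after a start. It was found in the windows of IL6, IL8, CXCL1, CXCL2 and CXCL3, and in 1.65% of all 34796 windows. The windows of IL1A, IL1B and IL11 did not hold these letters, and no window of IL18 or LIF was in the table. A link between the motif and the level of a gene was not tested, and the sites are shown only to place the genes beside each other. Each was located by its letters on GRCh37, the build of the deposited data, and is printed 5′ to 3′ on the strand of its gene with the motif in capitals.
IL6: atcaaatgtgGGATTTTCCcatgagtctc
IL8: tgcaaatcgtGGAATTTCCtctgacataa
CXCL1: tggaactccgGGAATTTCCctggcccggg
CXCL2: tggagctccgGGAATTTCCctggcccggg
CXCL3: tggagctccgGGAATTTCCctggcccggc

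The IL6 site lies on chromosome 7 (22766737 to 22766765, plus strand), inside the annotated span of IL6, which begins further upstream, but in no exon. The other 4 sites lie on chromosome 4, at 74606185 to 74606213 (IL8, plus strand), 74735022 to 74735050 (CXCL1, plus strand), 74964971 to 74964999 (CXCL2, minus strand) and 74904466 to 74904494 (CXCL3, minus strand), the last overlapping an annotated CXCL3 exon. The motif began 72 bases before the RefSeq start in IL6, 91 in IL8, 78 in CXCL1, 77 in CXCL2 and 78 in CXCL3. IL8 also carried the AP-1 motif TGANTCA, searched on both strands and present in 7.73% of windows, which began 137 bases before the start. The stretch below holds both, each in capitals, and runs from 74606146 to 74606235 on the plus strand of chromosome 4, where no exon is annotated.
IL8 upstream: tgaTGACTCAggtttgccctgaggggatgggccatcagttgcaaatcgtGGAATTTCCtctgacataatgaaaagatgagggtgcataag

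The genes themselves are protein-coding, and their positions on GRCh37 place the 4 chemokines in 1 stretch of chromosome 4. IL8 lies at 74606236 to 74609433, CXCL1 at 74735110 to 74737025, CXCL3 at 74902306 to 74904524 and CXCL2 at 74962757 to 74964913. IL6 is on chromosome 7 (22765503 to 22771621), where the antisense gene IL6-AS1 overlaps it, and no source used here says whether counting used strand. IL1A and IL1B are neighbours on chromosome 2 (113531502 to 113542070 and 113587328 to 113594393), IL18 is on chromosome 11 (112013976 to 112034819), LIF on chromosome 22 (30636442 to 30642748) and IL11 on chromosome 19 (55875750 to 55881831). Of the 451 stretches of 50 bases in the last 500 bases of the CXCL1 transcript 46 recurred in that of CXCL2, whereas CXCL3 and IL8 shared none with either. The letters of those 46 stretches do not tell CXCL1 and CXCL2 apart, and how reads from them were counted was not tested.

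Among the chemokines, IL8 had the widest range. It stood at 862 CPM in pre-treatment, 867 in DMSO and 669 in palbociclib, at 207 in JQ1-A, 214 in JQ1+paclitaxel, 131 in JQ1-B and 111 in JQ1+palbociclib, and at 80.1 in paclitaxel. Thus 3 libraries were high, the 4 libraries with JQ1 were lower, and the paclitaxel library without JQ1 was lowest of all. The 95% counting intervals, which cover counting error only and not the spread between cultures, overlapped only for DMSO with pre-treatment and for JQ1+paclitaxel with JQ1-A.

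CXCL2 followed the same split. Its level was 442 CPM in pre-treatment, 504 in DMSO, 564 in palbociclib, 170 in JQ1-A, 141 in JQ1+paclitaxel, 65.9 in JQ1-B, 68.5 in JQ1+palbociclib and 70.7 in paclitaxel. The last value sat among those of the JQ1 libraries, with an interval that overlapped JQ1+palbociclib. CXCL3 was at 96.0 CPM in pre-treatment, 65.2 in DMSO, 81.9 in palbociclib, 55.4 in JQ1-A, 52.2 in JQ1+paclitaxel, 27.2 in JQ1-B, 24.2 in JQ1+palbociclib and 12.8 in paclitaxel. The gap between libraries with and without JQ1 was narrower here than for IL8, and paclitaxel was again lowest. CXCL1, which gave 43 to 410 UMIs per library, was at 18.2 CPM in pre-treatment, 14 in DMSO, 24.8 in palbociclib, 11.1 in JQ1-A, 11.3 in JQ1+paclitaxel, 5.76 in JQ1-B, 2.60 in JQ1+palbociclib and 2.37 in paclitaxel.

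IL6 and LIF are the gp130 cytokines with counts high enough to test. IL6 was at 90.5 CPM in pre-treatment, 88.5 in DMSO, 211 in palbociclib, 70.6 in JQ1-A, 52.9 in JQ1+paclitaxel, 47.4 in JQ1-B, 61.0 in JQ1+palbociclib and 14.1 in paclitaxel. LIF, which sustains STAT3 signalling in many epithelial and stem cells, was at 4.33 CPM in pre-treatment, 5.46 in DMSO, 26.2 in palbociclib, 7.04 in JQ1-A, 4.67 in JQ1+paclitaxel, 3.60 in JQ1-B, 9.49 in JQ1+palbociclib and 0.550 in paclitaxel. Both genes were highest in palbociclib and lowest in paclitaxel, and the other 6 libraries ran from 3.60 to 9.49 CPM for LIF. IL11 was hardly detected, with 12 UMIs in paclitaxel, 0 in DMSO and JQ1-A and 2 to 6 in the other 5 libraries, and no fold is given for it because DMSO and JQ1-A held 0 UMIs.

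In the interleukin-1 family IL1B was at 5.60 CPM in pre-treatment, 8.47 in DMSO, 19.8 in palbociclib, 3.96 in JQ1-A, 2.23 in JQ1+paclitaxel, 3.40 in JQ1-B, 5.69 in JQ1+palbociclib and 1.27 in paclitaxel. IL1A had 2 UMIs in paclitaxel, 52 in palbociclib and 4 to 17 in the other 6 libraries, or 0.110 to 3.14 CPM. IL18 had the flattest profile of the tested genes, at 71.1 CPM in pre-treatment, 90.6 in DMSO, 81.4 in palbociclib, 89.9 in JQ1-A, 112 in JQ1+paclitaxel, 94.6 in JQ1-B, 98.7 in JQ1+palbociclib and 47.0 in paclitaxel. IL1A and IL1B thus shared the high palbociclib and low paclitaxel values of IL6 and LIF, while IL18 shared only the low paclitaxel value.

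**Figure D1:**
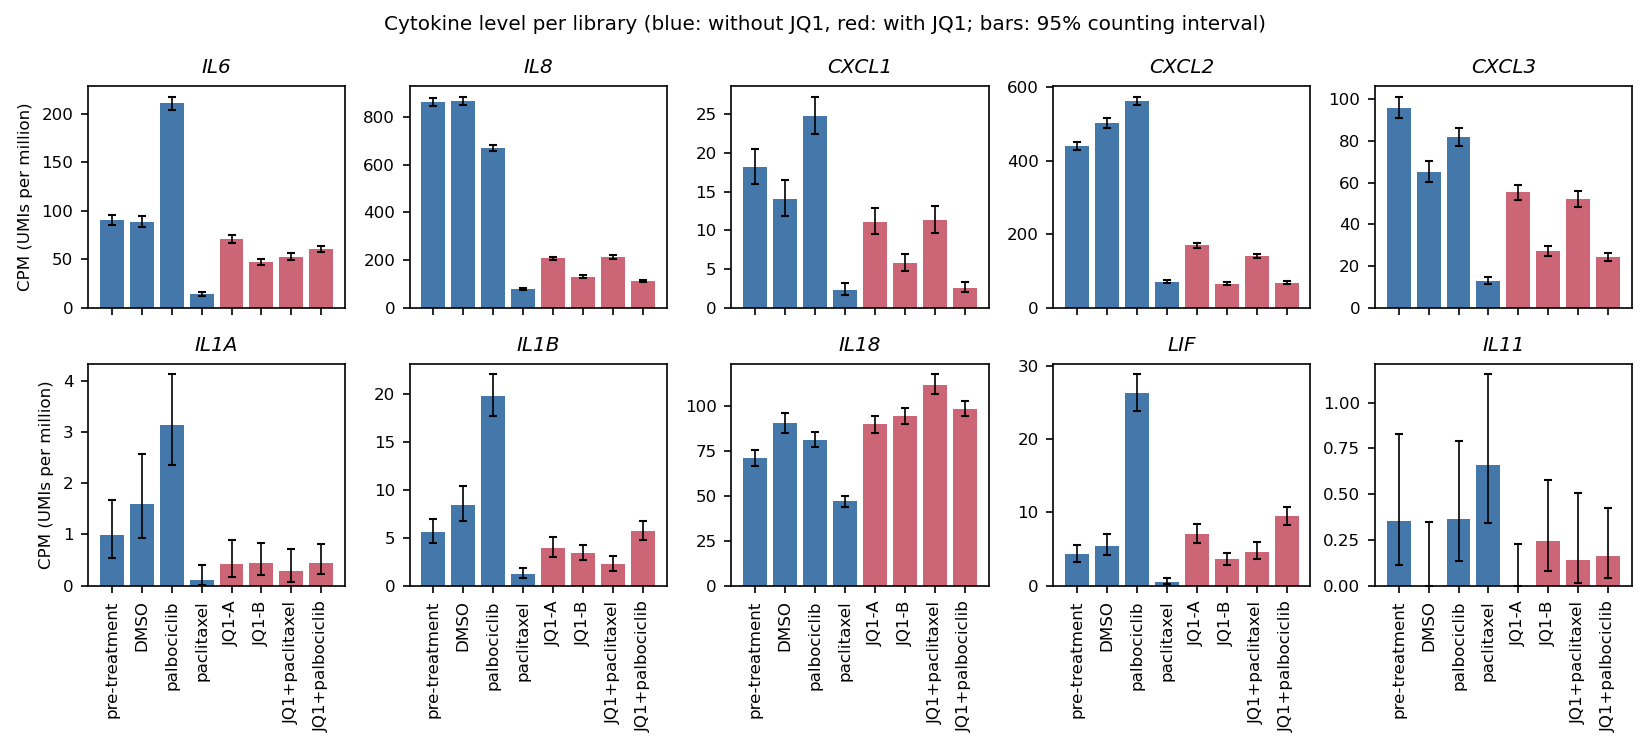
Level of each cytokine in CPM (y axis, starting at 0, scaled per gene) in the 8 libraries (x axis). Blue bars are libraries without JQ1, red bars libraries with JQ1, and error bars are 95% Poisson counting intervals, 1 library per bar. IL8 and CXCL2 are high only in pre-treatment, DMSO and palbociclib, whereas IL6, LIF and IL1B peak in palbociclib.

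Paclitaxel was the lowest of the 8 libraries for 8 of the 10 genes, the exceptions being CXCL2 and IL11, and for 7 of the 8 tested below. For CXCL1, IL1A and IL1B its counting interval overlapped that of the next library. The paclitaxel library was lowest for 17.8% of all 9288 tested genes. Relative to DMSO of the same experiment, IL8 was 10.8-fold lower in paclitaxel (counting interval 10.2 to 11.4), LIF 9.93-fold (5.03 to 21.8), CXCL2 7.13-fold (6.71 to 7.58), IL1B 6.70-fold (4.20 to 11.1), IL6 6.26-fold (5.45 to 7.21), CXCL1 5.93-fold (4.20 to 8.53) and CXCL3 5.09-fold (4.38 to 5.93). IL18 was 1.93-fold lower (1.76 to 2.12). For IL1A, on 2 UMIs, the ratio of paclitaxel to DMSO was 0.0687 (0.00770 to 0.290). A level of 0.5 of DMSO or less was found for 7 of the 8 tested cytokines and for 3.34% of all tested genes. These are ratios of 2 single libraries, so their intervals do not hold the spread between cultures.

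Palbociclib was the highest library for 6 of the 10 genes, IL6, CXCL1, CXCL2, IL1A, IL1B and LIF, 5 of them among the 8 tested, and for 12.3% of all tested genes. Against DMSO, which belonged to the other experiment, LIF was 4.80 times as high (3.64 to 6.43), IL6 2.38 times (2.22 to 2.56), IL1B 2.34 times (1.85 to 2.99), IL1A 1.96 times (1.12 to 3.62) and CXCL1 1.77 times (1.46 to 2.14). CXCL2 and CXCL3 were 1.12 and 1.26 times as high, and IL8 and IL18 were lower, with ratios of 0.771 and 0.898. The experiment and palbociclib cannot be told apart in these ratios, since the JQ1+palbociclib experiment had no vehicle library.

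JQ1 alone was sampled once in each experiment, and the pair of libraries did not give equal cytokine levels. JQ1-A exceeded JQ1-B 2.58-fold for CXCL2 (counting interval 2.42 to 2.76), 2.03-fold for CXCL3, 1.96-fold for LIF, 1.93-fold for CXCL1, 1.59-fold for IL8 and 1.49-fold for IL6, while IL18 had a ratio of 0.951 (0.888 to 1.02). An excess of 1.5-fold or more was found for 5 of the 8 tested cytokines and for 1.59% of all tested genes. The libraries of 1 treatment thus differed more for these 5 genes than for most genes.

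The effect of each drug was tested on summed UMI counts with edgeR's quasi-likelihood test over the 9288 genes that reached 5 CPM in at least 2 libraries, with JQ1 (4 libraries with, 4 without), palbociclib (2 and 6) and paclitaxel (2 and 6) as additive terms. Of the 10 cytokines 8 passed that filter, all but IL1A and IL11. At a Benjamini-Hochberg adjusted p under 0.05 the JQ1 term called 37.6% of all tested genes but only 1 cytokine, IL18, which rose by 0.67 ± 0.20 on the log2 scale (SE, adjusted p = 0.0297, edgeR). Its mean was 98.8 ± 9.56 CPM (SD, n = 4) in the libraries with JQ1 and 72.5 ± 18.8 CPM in the others, and the libraries of both groups overlapped. IL8 fell short of a call at a log2 fold change of -1.47 ± 0.66 (adjusted p = 0.112, edgeR), as did CXCL2 at -1.42 ± 0.65 (adjusted p = 0.115). The remaining 5 lay between -0.70 ± 0.38 for IL1B and 0.29 ± 0.59 for LIF. The median over the 8 cytokines was -0.48, against -0.0032 over all tested genes. No cytokine separated the 4 libraries with JQ1 from the 4 without, which 28.2% of tested genes did.

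This outcome changed when either library with paclitaxel was left out. Without the paclitaxel library, the JQ1 term called 7 of the 8 cytokines, 6 lower and 1 higher, where it called 33.1% of all genes tested in that fit, 17.5% lower and 15.7% higher. IL8 fell by 2.27 ± 0.18 on the log2 scale (adjusted p = 0.000515, edgeR), CXCL2 by 2.17 ± 0.36 (0.00417), CXCL1 by 1.49 ± 0.47 (0.0416), IL1B by 1.11 ± 0.26 (0.0152), CXCL3 by 1.06 ± 0.30 (0.0282) and IL6 by 0.83 ± 0.27 (0.0456), and IL18 rose by 0.39 ± 0.11 (0.028). LIF was not called (-0.37 ± 0.39, adjusted p = 0.486). Without JQ1+paclitaxel instead, edgeR again called 7 of the 8, with IL8 at -2.26 ± 0.18 (adjusted p = 0.000446), beside 3094 of all genes. In each of these fits the remaining library with paclitaxel is absorbed by the paclitaxel term, so that the JQ1 effect rests on pre-treatment, DMSO and palbociclib against JQ1-A, JQ1-B and JQ1+palbociclib. In CPM every library with JQ1, JQ1+paclitaxel included, was below each of pre-treatment, DMSO and palbociclib for IL6, IL8, CXCL1, CXCL2, CXCL3 and IL1A. These were 5 of the 8 tested genes and 1 untested, and 26.6% of all tested genes separated in that way. With library totals scaled by TMM factors, as in the fits, CXCL3 did not separate, at 59.8 in JQ1-A and 59.2 in DMSO. CXCL1 then stood at 12.5 in JQ1+paclitaxel and 12.7 in DMSO. Mitochondrial genes took a median of 3.72% to 5.58% of the UMIs of a cell in libraries without JQ1 and 4.69% to 7.18% with it, and their part in these differences was not tested.

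Within the JQ1+paclitaxel experiment JQ1-A was below DMSO for most cytokines and JQ1+paclitaxel above paclitaxel. The ratio of JQ1-A to DMSO was 0.239 for IL8 (counting interval 0.230 to 0.249), 0.337 for CXCL2 (0.322 to 0.353), 0.467 for IL1B (0.333 to 0.650), 0.793 for CXCL1 (0.635 to 0.992), 0.797 for IL6 (0.731 to 0.870) and 0.849 for CXCL3 (0.768 to 0.938). Intervals for IL18 (0.993, 0.914 to 1.08) and LIF (1.29, 0.932 to 1.80) included 1. These ratios are of CPM, whereas the fits scale library totals by TMM factors. With that scaling CXCL3 was at 59.8 in JQ1-A and 59.2 in DMSO, IL6 at 76.2 and 80.3, and IL18 at 97.1 and 82.2. IL8 stayed far lower in JQ1-A, at 224 against 787, as did CXCL2, at 184 against 457. The ratios of JQ1+paclitaxel to paclitaxel, given in full with the combinations, were above 1. An additive fit averages these unequal contrasts. In that fit of the 4 libraries 30.4% of tested genes were called, 15.7% higher, and 5 of 7 cytokines passed, all of them higher with JQ1. They were LIF at 1.66 ± 0.42 (adjusted p = 0.00665, edgeR), CXCL3 at 1.15 ± 0.34 (0.0165), CXCL1 at 1.12 ± 0.39 (0.0359), IL6 at 1.04 ± 0.34 (0.0253) and IL18 at 0.91 ± 0.24 (0.00803). IL8 and CXCL2 had terms of -0.04 ± 0.50 and -0.0040 ± 0.38, which average their low JQ1-A to DMSO ratios with ratios of JQ1+paclitaxel to paclitaxel of 2.67 and 1.99. In 3 pairs that shared experiment and partner drug, and with experiment as a term, edgeR called 0 of 8 cytokines, of which 1 had an unadjusted p under 0.05 in each fit, and called 3.94% and 4.98% of all tested genes.

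**Figure D2:**
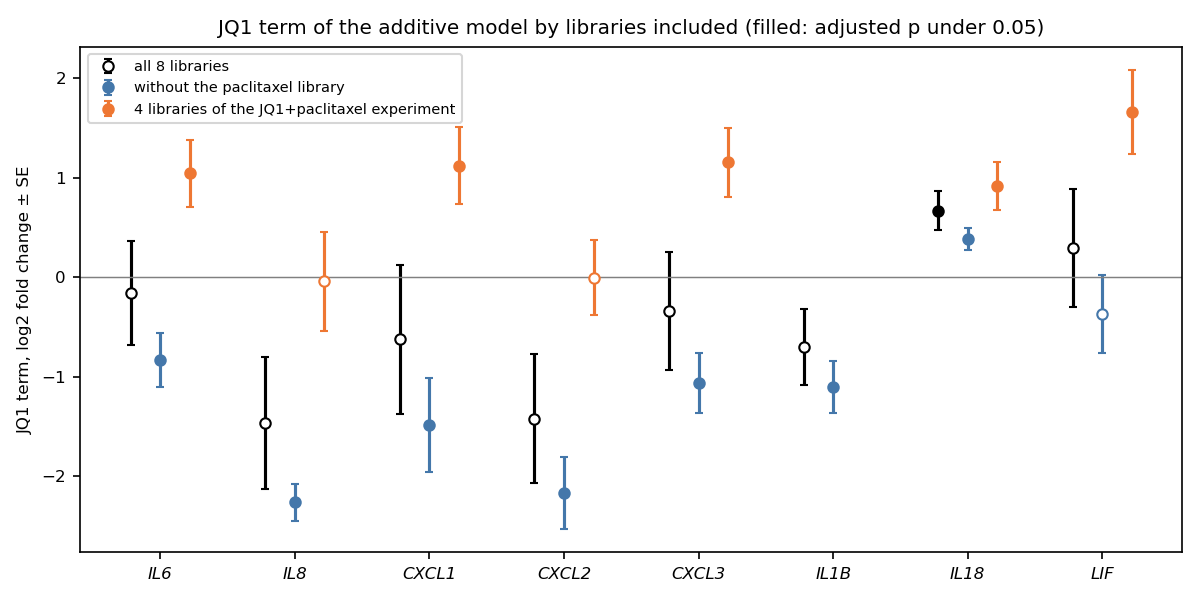
Log2 fold change for JQ1 (y axis, ± SE) of the 8 tested cytokines (x axis) in 3 fits, with all 8 libraries in black, without the paclitaxel library in blue and with the 4 libraries of the JQ1+paclitaxel experiment in orange. Filled points have an adjusted p under 0.05. IL8 moves from -1.47 to -2.27 when the paclitaxel library is left out, IL18 stays above 0 in all 3 fits, and IL1B did not reach the filter in the third.

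The palbociclib term called 0 of 8 cytokines with edgeR and 0 with DESeq2, and 0.28% of all tested genes with edgeR. An unadjusted p under 0.05 was found for 2 of the 8 cytokines and for 2056 of all 9288 tested genes. The 2 were LIF at 1.90 ± 0.64 on the log2 scale (adjusted p = 0.142, edgeR) and IL1B at 1.21 ± 0.41 (0.146). For LIF both libraries with palbociclib, at 26.2 and 9.49 CPM, were above all 6 without, which was the case for 9.3% of tested genes. IL6 had a term of 0.89 ± 0.58 (adjusted p = 0.395). With 1 library left out the palbociclib term ranged from 0.46 to 2.93 for LIF, from 0.35 to 1.84 for IL1B and from -0.43 to 1.71 for IL6.

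With edgeR the paclitaxel term called 0 of 8 cytokines and 0% of all genes, 4.25% having an unadjusted p under 0.05, and DESeq2 called 9 genes, none a cytokine. One cytokine had an unadjusted p under 0.05, IL1B at -1.48 ± 0.52 (adjusted p = 0.885), with 1.75 ± 0.683 CPM (SD, n = 2) in the libraries with paclitaxel and both of them below all 6 others, which 3.56% of tested genes showed. IL6 and IL8 were at -0.97 ± 0.64 and -0.83 ± 0.79. The pair of libraries with paclitaxel differed from each other for all 8, by 1.76-fold for IL1B to 8.49-fold for LIF.

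The combination of JQ1 with paclitaxel was compared with the single drugs. IL8 had a ratio of JQ1+paclitaxel to paclitaxel of 2.67 (counting interval 2.51 to 2.84), IL6 of 3.74 (3.24 to 4.32), LIF of 8.49 (4.34 to 18.5), CXCL1 of 4.77 (3.39 to 6.85), CXCL3 of 4.07 (3.51 to 4.74), IL18 of 2.39 (2.19 to 2.60), CXCL2 of 1.99 (1.86 to 2.14) and IL1B of 1.76 (1.0 to 3.16). All 8 were thus above 1. Against JQ1-A the same library had ratios close to 1 for IL8 (1.03, 0.982 to 1.08), CXCL1 (1.02, 0.816 to 1.26) and CXCL3 (0.943, 0.855 to 1.04), and from 0.564 for IL1B to 1.25 for IL18 otherwise.

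A model with interaction terms, which has 2 residual degrees of freedom, asked whether the combination departed from the sum of the single-drug effects on the log2 scale. For JQ1 by paclitaxel it called 0.388% of all tested genes and 3 of the 8 cytokines, all 3 above the sum, where 0.355% of genes were called. IL8 exceeded it by 3.81 ± 0.34 (adjusted p = 0.00597, edgeR), IL6 by 2.55 ± 0.32 (0.0171) and CXCL1 by 3.25 ± 0.54 (0.0412). CXCL3 (3.04 ± 0.53, adjusted p = 0.054), CXCL2 (3.04 ± 0.59, 0.0636), IL18 (1.10 ± 0.23, 0.0682), LIF (3.0 ± 0.70, 0.113) and IL1B (1.78 ± 0.53, 0.171) were not called. Leaving out 1 library gave 1 to 8 called cytokines. Without JQ1-B only IL8 was called (3.50 ± 0.21, adjusted p = 0.0153, edgeR), the 1 gene called in all, and IL6 (adjusted p = 0.111) and CXCL1 (0.217) were not. The median was 3.02 over the 8 cytokines and -0.02 over all tested genes.

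One cell weighed on part of this. In JQ1+paclitaxel a single cell of 29208 UMIs held 327 of the 749 CXCL3 UMIs, 69 of the 162 of CXCL1 and 407 of the 3068 of IL8, the most of any cell of that library for each of the 3 genes, and 0 of IL6. Without that cell the library stood at 29.5 CPM for CXCL3, 6.50 for CXCL1, 186 for IL8 and 139 for CXCL2. The interaction then kept its calls for IL8 (3.61 ± 0.34, adjusted p = 0.00591, edgeR) and IL6 (2.55 ± 0.32, 0.0169) and lost that for CXCL1 (2.45 ± 0.56, 0.109). CXCL3 went to 2.22 ± 0.54 (0.119). The ratio of JQ1+paclitaxel to JQ1-A, close to 1 with the cell, was 0.584 for CXCL1, 0.532 for CXCL3 and 0.897 for IL8 without it.

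JQ1 with palbociclib gave the opposite sign. Compared with palbociclib alone, JQ1+palbociclib had 0.105 of the CXCL1 level, 0.122 of CXCL2, 0.165 of IL8, 0.289 of IL6 and 1.21 times the level of IL18. Relative to JQ1-B it had 2.64 times the LIF (2.02 to 3.48), 1.68 times the IL1B (1.25 to 2.27), 1.29 times the IL6 (1.19 to 1.40) and 0.451 of the CXCL1 (0.327 to 0.618), with CXCL2 at 1.04 (0.967 to 1.12). The interaction lay below 0 for all 8 cytokines, from -2.47 ± 0.50 for CXCL1 (adjusted p = 0.113, edgeR) and -1.76 ± 0.47 for LIF (0.156) to -0.09 ± 0.22 for IL18. This term sets palbociclib beside pre-treatment and DMSO, and JQ1+palbociclib beside both JQ1 libraries. Part of these comparisons crosses experiments, and the model had no term for experiment. The experiment and the drugs thus cannot be told apart in this term. edgeR called 0 of 8 cytokines and 0.0108% of all tested genes. An unadjusted p under 0.05 was found for 4 of the 8 cytokines and for 1580 of all 9288 tested genes. DESeq2 called 2, CXCL1 and IL6, and 0.355% of all tested genes.

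**Figure D3:**
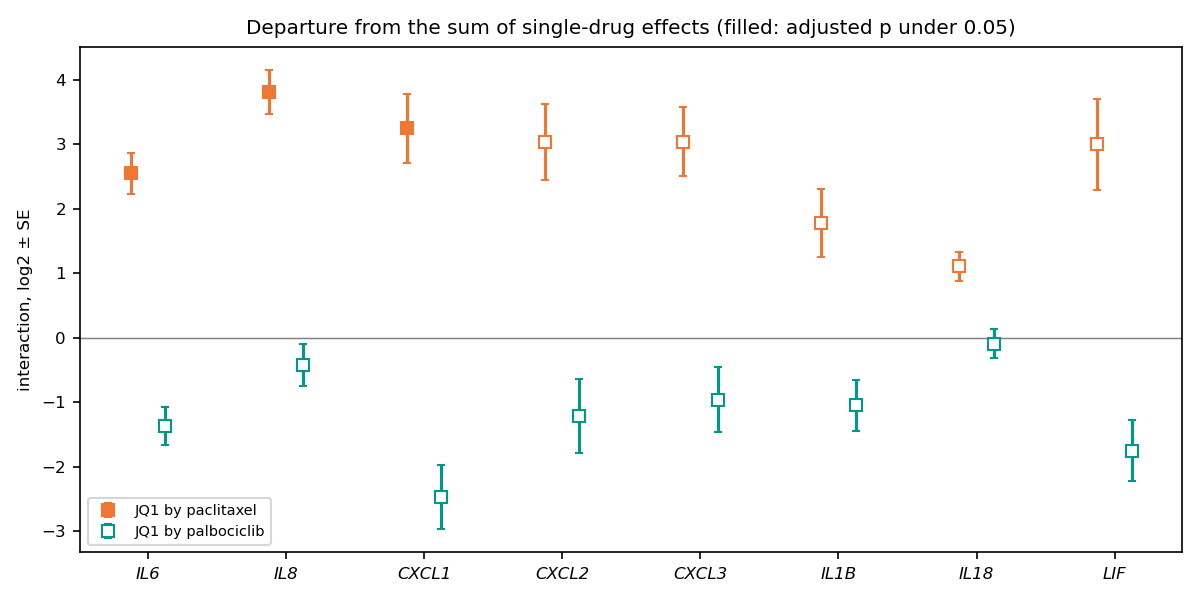
Interaction on the log2 scale (y axis, ± SE) for the 8 tested cytokines (x axis), for JQ1 with paclitaxel in orange and JQ1 with palbociclib in green. Filled squares have an adjusted p under 0.05, and 0 means that the combination equals the sum of the single-drug effects. JQ1 with paclitaxel lies above 0 throughout, up to 3.81 for IL8, and JQ1 with palbociclib below it.

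Shares of cells with a UMI were taken after thinning each of 5487 cells to 10000 UMIs, so that depth was equal. No cell type that should lack these genes was present, so the level that free RNA alone would give is unknown, and a share is that of cells with a UMI and not of expressing cells. IL8 UMIs were found in 84.4% of cells in pre-treatment (exact binomial 95% interval 81.2 to 87.2), 85.8% in DMSO and 89.7% in palbociclib, in 44.2% in JQ1-A, 44.4% in JQ1+paclitaxel, 34.3% in JQ1-B and 37.3% in JQ1+palbociclib, and in 23.4% in paclitaxel (20.3 to 26.6). Both the share and the amount per cell with a UMI were lower in these libraries, as such cells held a mean of 10.4 IL8 UMIs in DMSO, 4.88 in JQ1-A and 3.25 in paclitaxel. Without thinning the shares were 91.2% in DMSO, 55.4% in JQ1-A and 34.7% in paclitaxel.

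CXCL2 UMIs were in 84.9% of DMSO cells, 90.6% of palbociclib cells, 45.4% in JQ1-A, 26.3% in JQ1-B and 32.2% in paclitaxel. For IL6 the share was 47.2% in DMSO, 72.1% in palbociclib (68.5 to 75.4), 38.5% in JQ1-A and 10.7% in paclitaxel (8.51 to 13.1). LIF was found in 20.7% of palbociclib cells (17.7 to 24.0) and in 0.683% to 7.61% elsewhere, with 1.26 UMIs per cell with a UMI in palbociclib and 1.04 in DMSO. IL18 UMIs were in 47.3% to 63.0% of cells in 7 libraries and in 32.0% in paclitaxel. IL11 was found in 0 of 445 DMSO cells, which allows a share of up to 0.674% at a limit of 3 cells. The exact interval in DMSO was 0 to 0.826%, and that in paclitaxel, at 0.683% of cells, was 0.222 to 1.59%.

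**Figure D4:**
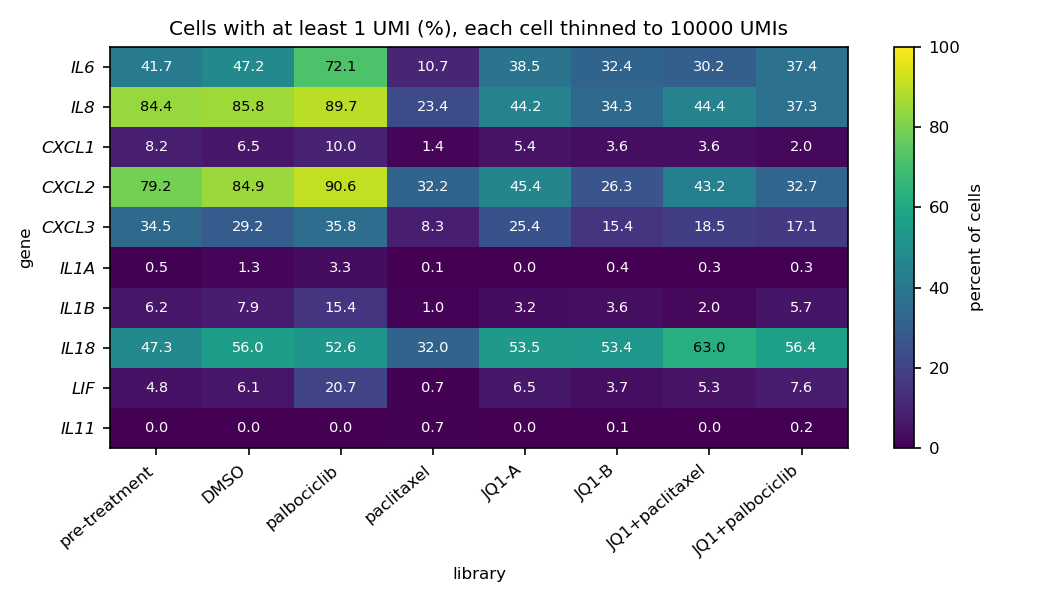
Percent of cells with at least 1 UMI (colour and printed value) of each cytokine (rows) in each library (columns), with cells thinned to 10000 UMIs. IL8 and CXCL2 are found in 79.2% of cells or more in pre-treatment, DMSO and palbociclib and in 45.4% or less in the other 5 libraries, while IL18 varies least among the frequent genes.

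IL8 was spread unevenly over the cells. The variance of its thinned UMIs was 4.71 to 19.4 times the mean across libraries, whereas for IL18 it was 1.14 to 1.41 times. The 19.4 was found in JQ1+paclitaxel, where the highest cell held 132 thinned IL8 UMIs at a mean of 2.27. For IL8 the ratio of variance to mean was 8.42 in DMSO, 6.28 in palbociclib, 11.5 in JQ1-A, 8.77 in JQ1-B and 7.12 in paclitaxel. The share of UMIs in the top 10% of cells rises as a gene becomes sparse. Mean thinned IL8 UMIs were 8.93 in DMSO and 0.758 in paclitaxel, so such shares do not compare concentration between libraries. The 10% of cells with the most IL8 held 31.4% of all IL8 UMIs in DMSO, 30.6% in palbociclib, 58.5% in JQ1-A, 70.8% in JQ1-B and 77.1% in paclitaxel. Those same cells held 17.3% of CXCL2 UMIs in DMSO and 18.7% in palbociclib, 37% in JQ1-A, 49.7% in JQ1-B and 35.5% in paclitaxel. Of IL6 UMIs they held 16.8% in DMSO and 23.4% in paclitaxel, and of IL18 UMIs 8.35% to 11.5% in all 8 libraries, about what 10% of cells would hold by number.

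Co-expression was described by Pearson's r of log(1 + thinned UMIs) across the cells of a library, for the 8 cytokines found in at least 5% of cells on average over libraries. Cells of 1 library share their preparation, and a sparse gene lowers r, so the values are descriptions. IL8 with CXCL2 had the highest mean r of the 28 pairs, 0.546, and reached 0.450 to 0.663 in the 8 libraries of 445 to 972 cells. CXCL2 with CXCL3 (0.351), IL8 with CXCL3 (0.340), IL6 with CXCL2 (0.248), CXCL1 with CXCL3 (0.231) and IL6 with IL8 (0.220) followed. In 13 of the 28 pairs r was above 0 in all 8 libraries. IL18 stood outside, with mean r of -0.017 to 0.030 in its 7 pairs.

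**Figure D5:**
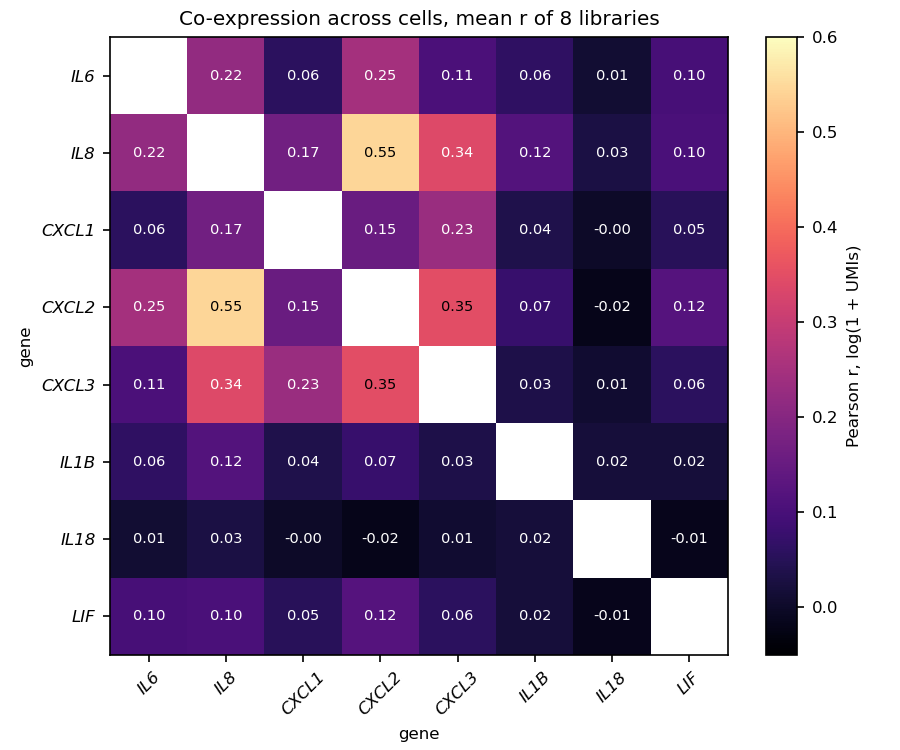
Mean over the 8 libraries of Pearson's r (colour and printed value) between the thinned, log-transformed UMIs of each pair of cytokines across cells. The chemokines IL8, CXCL2 and CXCL3 form the block of highest values, up to 0.55, and the row of IL18 is near 0.

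In paclitaxel and JQ1, where both genes were found in fewer cells, the pair still coincided. IL8 and CXCL2 UMIs occurred together in 104 of 732 paclitaxel cells, where the product of both shares gives 55.1, and in 209 of 650 JQ1-A cells, where it gives 130. In palbociclib, where nearly every cell had both, 565 of 662 cells did, against 538. LIF and IL18 met in 20 JQ1-A cells, where the product gives 22.5.

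When all candidate genes (mean of at least 0.1 UMI per thinned cell, 6645 for most cytokines) were ranked by mean r, CXCL2 ranked first for IL8, IL6, CXCL3 and LIF, and IL8 ranked first for CXCL2 and IL1B. The other genes most like IL8 were IER3 (mean r 0.380), an immediate early gene of NF-κB and growth factor signalling, NFKBIA (0.339), which encodes the inhibitor that holds NF-κB in the cytoplasm, and TNFAIP3 (0.228), which encodes the feedback inhibitor A20. The same 3 genes came up for CXCL2, at 0.354, 0.342 and 0.260, and for CXCL3, at 0.137, 0.208 and 0.150. IER3 led for IL6 (0.179), followed by the immediate early gene NR4A1 (0.159) and the mitochondrial MT-CO2 (0.135), and for LIF (0.112), followed by MT-CO1 (0.0960) and NR4A1 (0.0889). CXCL1 was most like NFKBIA (0.0933), ATF3 (0.0817) and NGFRAP1 (0.0785), and IL1B like CCL20 (0.0737), C11orf96 (0.0724) and SH3BGRL3 (0.0723). For IL18 the nearest were KRT7 (0.169), a simple epithelial keratin, NPM1 (0.143) and ANXA2 (0.136), none of which came up for another cytokine.

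In JQ1+palbociclib IL6, IL8 and IL18 were set beside FN1, COL1A1 and TIMP3, which encode or regulate extracellular matrix, and the histone gene H2AFJ. The study names these genes together with IL6 and IL18 for part of its clusters of JQ1+palbociclib cells. Clusters were compared with each other there, whereas r is taken across all cells here. Across the 972 cells of that library IL8 had r of 0.184 with FN1, 0.141 with TIMP3, 0.115 with COL1A1 and 0.0899 with H2AFJ. IL6 had -0.0475 with FN1, -0.0865 with TIMP3, -0.0585 with COL1A1 and -0.146 with H2AFJ. IL18 had 0.0877, 0.0262, 0.0287 and 0.0369 with these in the same order. The r of IL6 with IL8 was 0.152 there, 0.157 in JQ1-B and 0.128 in paclitaxel, and 0.236 to 0.292 in the other 5 libraries.

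Pathway genes were described from lists. Of 19 other cytokine genes 17 were in the table and 5 were tested. For JQ1, CSF2, which encodes the growth factor GM-CSF, fell by 2.42 ± 0.28 on the log2 scale (adjusted p = 0.00121, edgeR) and TGFB1 rose by 0.82 ± 0.09 (0.00106). CSF2 was at 15.1 to 17.1 CPM in pre-treatment, DMSO and palbociclib, at 6.60 in paclitaxel and at 1.73 to 3.40 in the 4 libraries with JQ1, so that here even paclitaxel was above every library with JQ1. CXCL10, an interferon target, did not pass the filter and was at 2.20 to 3.39 CPM in pre-treatment, DMSO and palbociclib and at 0 to 0.0550 CPM elsewhere.

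Receptors were represented by 9 genes, of which 6 were tested, and edgeR called 0 for JQ1. IL6ST, which encodes gp130, was at 94.5 to 136 CPM, LIFR at 23.9 to 37.5 and IL6R at 4.83 to 10.3, while CXCR1 and CXCR2 were not listed in the table. In gp130 signalling 2 of 6 tested genes were called for JQ1, beside 37.6% of all tested genes. SOCS3, a STAT3 target that feeds back on gp130, fell by 1.38 ± 0.37 (adjusted p = 0.0205, edgeR) and was at 14.8 to 23.1 CPM in pre-treatment, DMSO and palbociclib, at 7.65 in paclitaxel and at 3.59 to 6.41 with JQ1. PIAS3, an inhibitor of STAT3, rose by 0.73 ± 0.12 (0.00366).

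Among 4 tested genes of interleukin-1 and interleukin-18 processing, CASP1, which encodes caspase-1, fell by 2.27 ± 0.27 (adjusted p = 0.00121, edgeR). It was at 33.8 CPM in pre-treatment, 28.8 in DMSO, 40.7 in palbociclib, 20.8 in paclitaxel and 4.62 to 7.60 in the 4 libraries with JQ1, where IL18, its substrate, was at 89.9 to 112 CPM. Of 15 tested regulators of NF-κB and C/EBP, 5 fell and 1 rose, beside 19.7% and 17.8% of all tested genes. NFKBIA fell by 0.99 ± 0.29 (0.0295), RELB by 0.89 ± 0.20 (0.0104), IRAK1 by 0.82 ± 0.25 (0.033), NFKB1 by 0.74 ± 0.16 (0.00987) and MYD88 by 0.68 ± 0.12 (0.005), and IKBKB rose by 0.40 ± 0.13 (0.0415). TNFAIP3 was not called and was at 45.5 CPM in DMSO, 85.8 in palbociclib, 7.70 in paclitaxel and 8.92 to 19.8 with JQ1. Of 7 genes of cytokine mRNA decay, ZFP36L1 rose by 0.49 ± 0.15 (0.0333) and HNRNPD fell by 0.51 ± 0.09 (0.00466).

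For palbociclib and paclitaxel edgeR called 0 genes of these 6 lists, with an unadjusted p under 0.05 in 0 to 3 genes of a list. Of all 9288 tested genes 2056 had such a p for palbociclib and 395 for paclitaxel. For JQ1 with paclitaxel the interaction called CCL20 (1.93 ± 0.31, adjusted p = 0.0369, edgeR), which encodes a chemokine, NFKBIZ (2.47 ± 0.42, 0.0474), which encodes a nuclear NF-κB cofactor needed for IL6 transcription, and IRAK1 in the other direction (-1.16 ± 0.20, 0.049). NFKBIZ was at 36.2 CPM in DMSO, 6.99 in paclitaxel, 23.5 in JQ1-A and 20.4 in JQ1+paclitaxel. In CPM it shared the order of these libraries with IL6, CXCL2, CXCL3 and IL1B, but not with LIF and IL18. IL8 and CXCL1 differed from it only in JQ1+paclitaxel, which was above JQ1-A (214 and 207 CPM, 11.3 and 11.1 CPM) with overlapping counting intervals. Without the CXCL3-rich cell JQ1+paclitaxel was at 186 CPM for IL8 and 6.50 for CXCL1, and both then shared the order.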

How the data were processed

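The authors made the deposited table of UMI counts per gene and cell with 10x Genomics 3′ chemistry, Cell Ranger on hg19 and Seurat, per the labels, and a second file gave the library of each cell. Counts of all 5738 cells were summed per library and divided by the library total for CPM. Levels and ratios of libraries use this CPM without TMM factors, unless stated. edgeR 4.0.16 in R 4.3.3 was fitted with TMM factors on 9288 genes with at least 5 CPM in at least 2 libraries, and DESeq2 1.42.0 was an alternative. Standard errors were derived from F statistics and are approximate. A group had 1 or 2 libraries, so p-values measure the spread between libraries that the fitted terms leave over. In the interaction model each library with paclitaxel or palbociclib is fitted exactly and adds nothing to that spread. Values per cell used the 5575 cells that had 1 to 15% of UMIs from mitochondrial genes and 2000 genes or more, thinned to 10000 UMIs, which left out 88. Doublets were not called, because the cells are of a single line, and cells above the 95th percentile of UMIs were left out as a check. Scripts were tested on simulated data. The other genes named for likeness were the 3 with the highest mean r among genes that are not members, and pathway genes were named where called, with a few others named after their values were seen. The cytokines, gene lists and tests were chosen with earlier results of these data known. Promoter windows came from RefSeq (GRCh38.p14) and gene positions from GENCODE for GRCh37.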

Additional observations from a re-analysis of the deposited data

Results flagged for a closer look

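In the interaction test the effect of paclitaxel differed with and without JQ1 for 3 cytokines, with interactions on the log2 scale of 3.81 for IL8, 2.55 for IL6 and 3.25 for CXCL1 (edgeR, adjusted p of 0.00597, 0.0171 and 0.0412). The model was known from earlier results of these data to call IL8, so that call is not independent of the choice of test. Apart from JQ1 alone, with 2, each treatment had 1 library, so the part of the culture in these values cannot be told apart from that of the drug, and CXCL1 lost its call without 1 cell. No group had more than 2 libraries, so single libraries were not tested for standing apart.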

How the results depend on the processing

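Size factors of the RLE method and cells passing the study's filter changed no direction and no call among 30 log2 fold changes. For JQ1, where 1 cytokine was called, the count was 4 of 10 with no filter on low counts (4210 of all genes), 0 with experiment as a term, 5 of 7 in the JQ1+paclitaxel experiment, 0 in 3 matched pairs, and 0 to 7 with 1 library left out (0 without JQ1-A, JQ1-B or pre-treatment, 7 without paclitaxel or JQ1+paclitaxel). For JQ1 by paclitaxel, where 3 were called, beside 36 of all genes, DESeq2 called 5 (80 of all genes), no filter gave 8 of 10 (724), and leaving out 1 library gave 1 without JQ1-B (1 of all genes) to 8 without pre-treatment (1141), with 7 without DMSO (617) and 5 without JQ1-A (10). For JQ1 by palbociclib, where 0 were called with edgeR, beside 1 of all genes, DESeq2 called 2 (33 of all genes), no filter gave 5 of 10 (689), and leaving out 1 library gave 0 to 6, with 5 without pre-treatment (596 of all genes) and 6 without DMSO (1112). For palbociclib and paclitaxel the number called also depended on the library left out. With 1 library left out the palbociclib term of LIF ranged from 0.46 to 2.93, and the paclitaxel term of IL1B from -2.65 to -0.45. The interaction model and the fits that leave out a library have few degrees of freedom. In them a lone library of a group is assumed to vary like the others.

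The JQ1 term reversed for IL6 and CXCL3 with experiment as a term (0.065 and 0.15) and in 3 matched pairs (0.063 and 0.15), and in the JQ1+paclitaxel experiment for IL6 (1.04), CXCL1 (1.12) and CXCL3 (1.15). LIF went to -0.43 with no term for the other drugs, an alternative added after seeing the data, as were leaving out shared barcodes and the single CXCL3-rich cell. With 1 library left out the JQ1 term ranged from -0.83 to 0.43 for IL6, -1.49 to 0.22 for CXCL1, -1.06 to 0.20 for CXCL3 and -0.37 to 1.07 for LIF, and from -2.27 to -0.98 for IL8, -2.17 to -0.81 for CXCL2, -1.11 to -0.23 for IL1B and 0.39 to 0.82 for IL18. The palbociclib term of IL6 ranged from -0.43 to 1.71, the paclitaxel term from -2.90 to 0.11 for IL6 and -3.49 to 0.46 for IL8, and the JQ1 by palbociclib term of IL18 from -0.27 to 0.066. The cause was not tested. No paired analysis was possible because the labels number no replicates across groups, and the matched pairs above share only the experiment and partner drug. Genes of few UMIs, CXCL1, LIF and IL1B above all, limit what depth can show. Mean r moved by less than the spread between libraries in all 28 pairs with Spearman's rho and without cells above the 95th percentile of UMIs, whereas shares moved beyond their interval in 70 of 80 cases with all UMIs and in 59 with 5000 UMIs per cell. Levels moved beyond their counting interval in 26 of 80 cases with TMM scaling and in 27 with the mean of the CPM per cell.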
